A study of Mus musculus with 10 samples.

Results

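Proximal tubule cells of the kidney take up filtered albumin, vitamin-binding proteins and hormones by receptor-mediated endocytosis. The genes described here are the 4 that encode its apical receptor machinery. Lrp2 encodes megalin, a giant endocytic receptor of the LDL receptor family. Cubn encodes cubilin, a peripheral receptor without a membrane anchor of its own. Amn encodes amnionless, the membrane protein that anchors cubilin and carries it to the surface. Dab2 encodes the adaptor that binds the cytoplasmic tail of megalin and links it to clathrin. The 4 genes were chosen by name, and all 4 had a row in each of the 10 count tables, which together list 28808 genes. Filtered ligands bind at the brush border, enter through clathrin-coated pits and part from their receptors in acidified endosomes. The receptors then recycle to the surface and the ligands pass to lysosomes.

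The study applied Drop-seq, a droplet method that counts unique molecular identifiers (UMIs) at the 3' end of transcripts for each cell barcode, to single cells from kidney cortex of mice aged 4 weeks. There was 1 library from normal kidneys, here called the control. Injured kidneys gave 1 library on each of days 1, 2 and 4, and 2 libraries on each of days 7, 11 and 14. The labels name neither the way the injury was made nor the strain, any sham operation or the number of animals behind a library. P-values between days therefore measure the spread between these libraries, which may be technical, and every comparison with the control rests on 1 library.

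The tables held 64803 barcodes and 173806985 UMIs. Of these barcodes, 52797 passed minima of 500 UMIs and 500 genes and a mitochondrial share of no more than 50%, with a median of 1244 to 2662 UMIs per library. Most of the loss was on day 11, whose libraries kept 5409 of 10800 and 5283 of 10711 barcodes. The control kept 6134 of 6745, and the day 7 libraries 3621 of 3621 and 5154 of 5156. The part of this loss in the day 11 values was not tested. A barcode was proximal when it held at least 5 UMIs from at least 3 of 26 proximal tubule genes. It was injury-positive when it held at least 2 UMIs of Havcr1, Vcam1, Krt20, Sprr2f and Sprr2g together and at least 2 UMIs of 11 epithelial genes. None of the 4 receptor genes is in these lists. Barcodes with at least 3 UMIs from at least 2 markers of another kidney or blood cell type were set aside as mixed or of that type. The mixed ones made up 17.1% to 36.5% of barcodes per library. They were also proximal or injury-positive, or were positive for several of the other types. Of the rest, 26171 barcodes were proximal or injury-positive. They are called the tubule set and comprised 22711 that were proximal only, 2848 that were proximal with injury markers and 612 that were injured only. Injury-positive barcodes were common on days 1, 2, 4 and 7, with 676, 164, 1504, 500 and 579 per library, and rare in the control, which had 4. Days 11 and 14 had between 1 and 16. The summed injury markers of the tubule set stood at 341 to 4003 UMIs per 1000000 UMIs of the gate (CPM) in the 5 libraries of days 1 to 7 and at 2.77 to 16.1 CPM in the other 5, and the proximal list at 8785 to 26890 against 29772 to 40680 CPM. The macrophage list reached 19.6 to 199 CPM in those 5 libraries against 10.8 to 23.1 CPM in the others, with overlap. T or NK cell markers reached 10.6 to 24.8 against 1.23 to 4.55 CPM and neutrophil markers 4.12 to 41.8 against 1.38 to 3.03 CPM, without overlap. The lists for intercalated cells (27.8 to 82.9 against 20.2 to 35.1 CPM), principal cells (101 to 272 against 71.1 to 125), stromal cells (25.3 to 50.4 against 6.76 to 29.6), podocytes (25 to 79.5 against 5.95 to 40.8) and endothelial cells (16.5 to 96.6 against 9.75 to 37.3) also reached higher on days 1 to 7, with overlap. Haemoglobin genes ran from 19.2 to 2805 CPM, with 1480 and 19.2 CPM in the day 7 libraries and 2805 and 1192 CPM in those of day 11. The median mitochondrial share in the tubule set was 23% in the control and 4.42% and 6.11% in the day 7 libraries. The part of these in the results was not tested.

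Lrp2 lies on chromosome 2 at chr2:69424340-69586065 and Cubn at chr2:13276338-13491813, both on the minus strand in the mouse build mm10. Amn lies at chr12:111271095-111276426 and Dab2 at chr15:6299788-6440712, both on the plus strand. In the GENCODE M21 annotation Gm13270 overlaps Cubn, and Gm16311 and Gm18888 overlap Dab2, on the opposite strand. Whether the counting used strand is not given in the sources used here, so reads of these genes may be included. The 250 bases before the start site are shown for Lrp2 and Cubn, the receptors, which were both called higher from day 11 to day 14, and for the start of Dab2 that holds a searched motif, each read 5' to 3' on the gene's own strand from RefSeq's GRCm38.p6 annotation, which gives start sites that can differ from the gene ends above.
Lrp2, chr2:69586030-69586279, minus strand: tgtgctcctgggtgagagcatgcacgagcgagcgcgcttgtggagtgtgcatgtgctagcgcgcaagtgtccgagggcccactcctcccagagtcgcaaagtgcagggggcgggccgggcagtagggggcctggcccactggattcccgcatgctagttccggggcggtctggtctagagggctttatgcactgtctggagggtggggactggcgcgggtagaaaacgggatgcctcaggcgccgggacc
Cubn, chr2:13491877-13492126, minus strand: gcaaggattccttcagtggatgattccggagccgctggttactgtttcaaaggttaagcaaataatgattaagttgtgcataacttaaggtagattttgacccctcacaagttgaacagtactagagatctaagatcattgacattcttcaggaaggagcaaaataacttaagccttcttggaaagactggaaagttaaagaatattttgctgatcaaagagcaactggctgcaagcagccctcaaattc
Dab2, chr15:6386498-6386747, plus strand: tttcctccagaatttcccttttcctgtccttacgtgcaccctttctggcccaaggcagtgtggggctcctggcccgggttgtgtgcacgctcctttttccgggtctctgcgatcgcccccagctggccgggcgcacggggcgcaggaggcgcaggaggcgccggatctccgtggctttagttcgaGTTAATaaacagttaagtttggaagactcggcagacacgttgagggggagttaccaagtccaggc
Capitals mark the motif GTTAAT, the half-site of HNF1 factors, which keep proximal genes active. All start sites of the 4 genes in the RefSeq table were searched on both strands. The Dab2 window shown was the only one with GTTAAT, a motif present in 6.43% of all 32851 windows of this length. No window held the full HNF1 palindrome, the HNF4 site CAAAGTCCA or the AP-1 site TGANTCA, which occur in 0.00913%, 0.384% and 6.75% of windows. A match is only a match of letters, and which start site the cells used cannot be read from 3' counts.

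Megalin transcripts had the widest range of levels of the 4. In the tubule set Lrp2 stood at 1971 CPM in the control. The day 1 library held 679 CPM, that of day 2 held 1032 and that of day 4 held 630, and the day 7 libraries held 503 and 335 CPM. Day 11 gave 705 and 709 CPM and day 14 gave 1483 and 1435 CPM. All 9 libraries from injured kidneys were below the control, the day 7 pair was lowest, and no exact 95% Poisson interval of any of them reached that of the control (1944 to 1999 CPM). After thinning to 500 UMIs per barcode, 55.5% of control barcodes were expected to hold an Lrp2 UMI, against 20% and 15.4% on day 7 and 47.4% and 48.4% on day 14. Without thinning these shares were 89.1%, 42.2%, 41.8%, 83.1% and 84.7%. In thick limb barcodes, where Lrp2 UMIs can come from free RNA, the thinned share had a median of 2.33% and a highest value of 3.21% over the 10 libraries. Median depth was 1323 to 2281 UMIs in the tubule set and 1443 to 3038 in thick limb barcodes. CPM counts transcript ends, and fewer cells with the transcript and less of it per cell both lower a summed level.

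Cubilin was also low on day 7, but both day 14 libraries lay above the control. Cubn stood at 63.8 CPM in the control (95% interval 58.9 to 69), then 30, 74.8 and 46.6 CPM in the day 1, day 2 and day 4 libraries. The day 7 libraries held 36.9 and 32.3 CPM and the day 11 libraries 53.6 and 55 CPM. Both day 14 libraries, at 102 and 107 CPM, were above every other library. Day 2 was above the control per total UMIs, with overlapping intervals, and below it after TMM scaling (70.5 against 86.6 CPM). These levels rest on few molecules on day 7, with 52 and 94 UMIs.

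Amnionless showed another order. Amn stood at 171 CPM in the control (95% interval 163 to 179) and at 139, 370 and 305 CPM in the day 1, day 2 and day 4 libraries. The day 7 libraries held 202 and 217 CPM, the day 11 libraries 279 and 318 CPM, and the day 14 libraries 282 and 285 CPM. Day 1 was the only injured library below the control per total UMIs, whereas after TMM scaling the day 7 libraries were below it too (135 and 157 against 232 CPM). Day 2 was the highest of the 10 per total UMIs.

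The adaptor Dab2 varied least. It stood at 311 CPM in the control (95% interval 300 to 322), then 375, 560 and 454 CPM in the day 1, day 2 and day 4 libraries. The day 7 libraries held 371 and 343 CPM, those of day 11 held 321 and 316 CPM, and those of day 14 held 408 and 479 CPM. No injured library was below the control per total UMIs, with overlapping intervals on day 11, whereas after TMM scaling days 1, 4, 7 and 11 were below it (248 and 249 on day 7 against 422 CPM). The highest per total UMIs was again day 2.

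**Figure D1:**
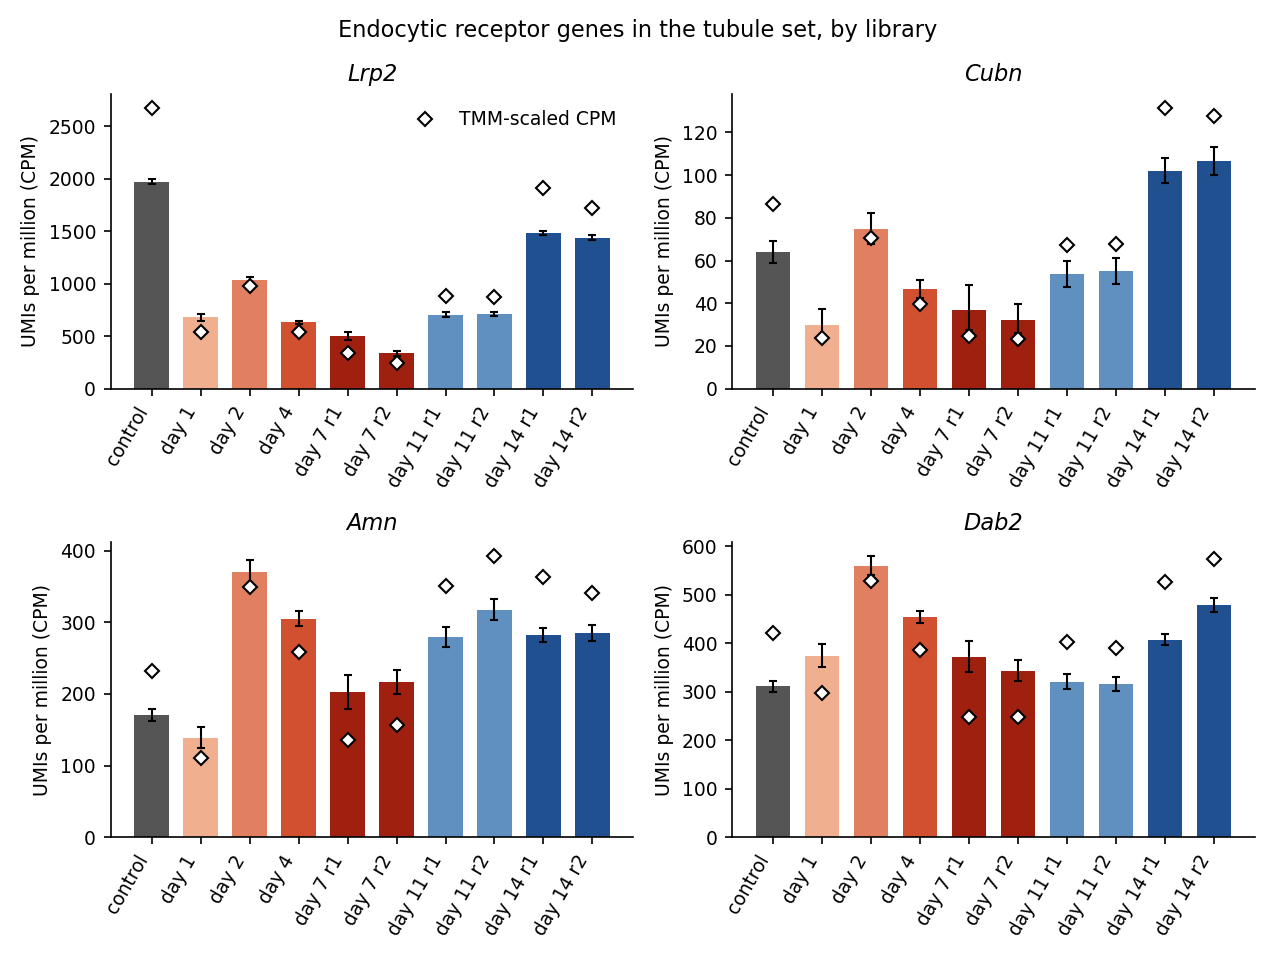
Level of each gene in the tubule set of each library: bars give UMIs per 1000000 gate UMIs (CPM) with exact 95% Poisson intervals, and diamonds give the same level after TMM scaling, the scale of the edgeR tests. Lrp2 is below the control (1971 CPM) in all 9 injured libraries on both scales, whereas the day 7 values of Amn and Dab2 lie above the control per total UMIs and below it after TMM scaling.

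The balance among the 4 genes shifted in a way that no scaling of libraries can alter, because the 4 are counted in the same barcodes. Lrp2 made up 78.3% of the UMIs of the 4 genes in the control tubule set (exact binomial 95% interval 77.8% to 78.8%). It made up 55.6%, 50.7% and 43.9% on days 1, 2 and 4, and 45.2% and 36.2% on day 7. The day 11 libraries were at 51.9% and 50.7% and the day 14 libraries at 65.2% and 62.2%. Dab2 had 12.4% of these UMIs in the control, 33.3% and 37% in the day 7 libraries, and 17.9% and 20.8% at day 14. Amn had 6.78% in the control, 18.2% and 23.4% at day 7, and 12.4% in both day 14 libraries. Cubn kept the smallest range of shares, from 2.45% to 4.62%. Intervals cover counting error only, and no test was made with 1 control library.

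In proximal only barcodes, which carry no injury call, the share of Lrp2 lay in 3 narrow bands. It was 78.3% in the control, between 50.8% and 54% in all 7 libraries from day 1 to day 11, and 62.2% to 65.2% in the 2 libraries of day 14. The 7 libraries differ in mitochondrial share and in the number of proximal only barcodes, which ran from 208 and 307 on day 7 to 3275 and 3522 on day 11. Their median depth in this gate was 1141.5 to 1572.5 UMIs, below day 14 (1872 and 1790) and the control (2279). Depth thus has the same order as the 3 bands, and its part in them was not tested. The tubule set also holds injury-positive barcodes. Its Lrp2 share was lower than that of proximal only barcodes on days 4 and 7, at 36.2% to 45.2%. It was 55.6% against 51.8% on day 1 and 50.7% against 51.6% on day 2. The part of injury-positive barcodes in these shares was not tested.

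**Figure D2:**
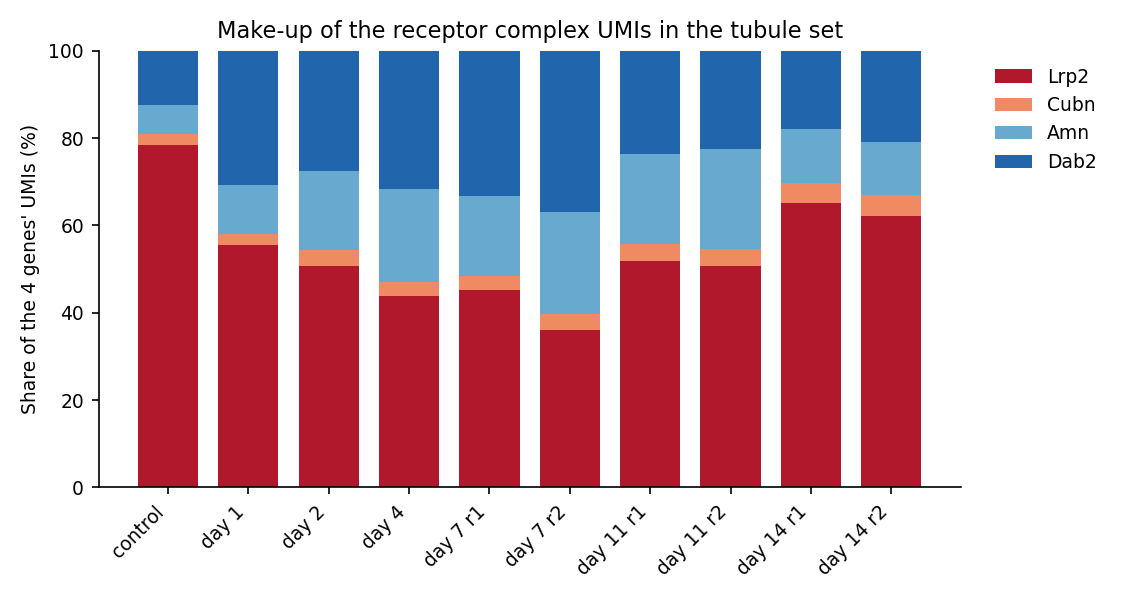
Share of each of the 4 genes in their summed UMIs, in percent, for the tubule set of each library. The Lrp2 segment covers 78.3% in the control, 36.2% to 55.6% from day 1 to day 11 and 62.2% to 65.2% on day 14.

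Within libraries, the level of all 4 genes was lower in injured only barcodes than in proximal only barcodes of the same library. Lrp2 stood at 160, 144, 130 and 59.6 CPM in the injured only barcodes of day 1, day 4 and the day 7 libraries, against 747, 1036, 807 and 948 CPM in proximal only barcodes. The ratio of the first gate to the second within a library was 0.0628 to 0.214. Cubn stood at 5.32, 22.1, 20.3 and 14 CPM against 43.8, 60.1, 66.3 and 46.4 CPM, with only 1 to 5 UMIs in each injured only gate. Amn stood at 31.9, 177, 118 and 105 CPM against 159, 315, 184 and 307 CPM. Dab2 stood at 149, 271, 183 and 165 CPM against 493, 525, 530 and 455 CPM.

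In edgeR's quasi-likelihood test with the library as a block (4 libraries), all 4 genes passed an adjusted p of 0.05 as lower in injured only barcodes. In this test 15.8% of the 6442 genes tested were called lower. Cubn held 14 UMIs over the 4 injured only gates and passed the filter on low counts only through proximal only barcodes. Its call is therefore not counted as support. The log2 changes were -3.08 (SE 0.25, adjusted p = 5.38e-07) for Lrp2, -1.99 (SE 0.35) for Cubn, -1.41 (SE 0.23) for Amn and -1.60 (SE 0.18) for Dab2 by edgeR, with adjusted p-values of 0.000512, 0.000317 and 1.23e-05 for the last 3. The median of the 4, Cubn included, was -1.80 beside 0.02 over all genes tested. The injured only gate leaves out barcodes with proximal markers, and the 4 genes are themselves proximal genes, so the gate is not independent of them. A gate that requires the proximal markers gave smaller changes, but it was not matched to proximal only barcodes in these markers or in depth. On days 1, 2 and 4 and in the day 7 libraries it held medians of 21, 25, 20, 13 and 16 proximal list UMIs. Proximal only barcodes held 13, 38, 29, 17 and 29. Median depths were 2353.5, 2979.5, 2594.5, 1952.5 and 3217 UMIs against 1230.5, 1572.5, 1418, 1141.5 and 1514 UMIs. The part of these differences was not tested. Proximal barcodes with injury markers, in 5 libraries that include day 2, held Lrp2 at 705, 675, 343, 492 and 166 CPM. Proximal only barcodes held 747, 1100, 1036, 807 and 948 CPM. The barcodes with injury markers were lower in 5 of 5 libraries, with ratios from 0.943 on day 1 to 0.175 in the second day 7 library. The day 7 libraries differed from each other here, at 492 and 166 CPM. By edgeR, 3 of 4 genes were called lower in these barcodes, against 12.7% of all genes, with log2 changes of -1.22 (SE 0.28) for Lrp2, -0.92 (SE 0.13) for Cubn and -0.53 (SE 0.09) for Dab2 and adjusted p-values of 0.00942, 0.000733 and 0.00218. Amn had -0.28 (SE 0.14, adjusted p = 0.167 by edgeR) and was lower in 4 of 5 libraries.

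**Figure D3:**
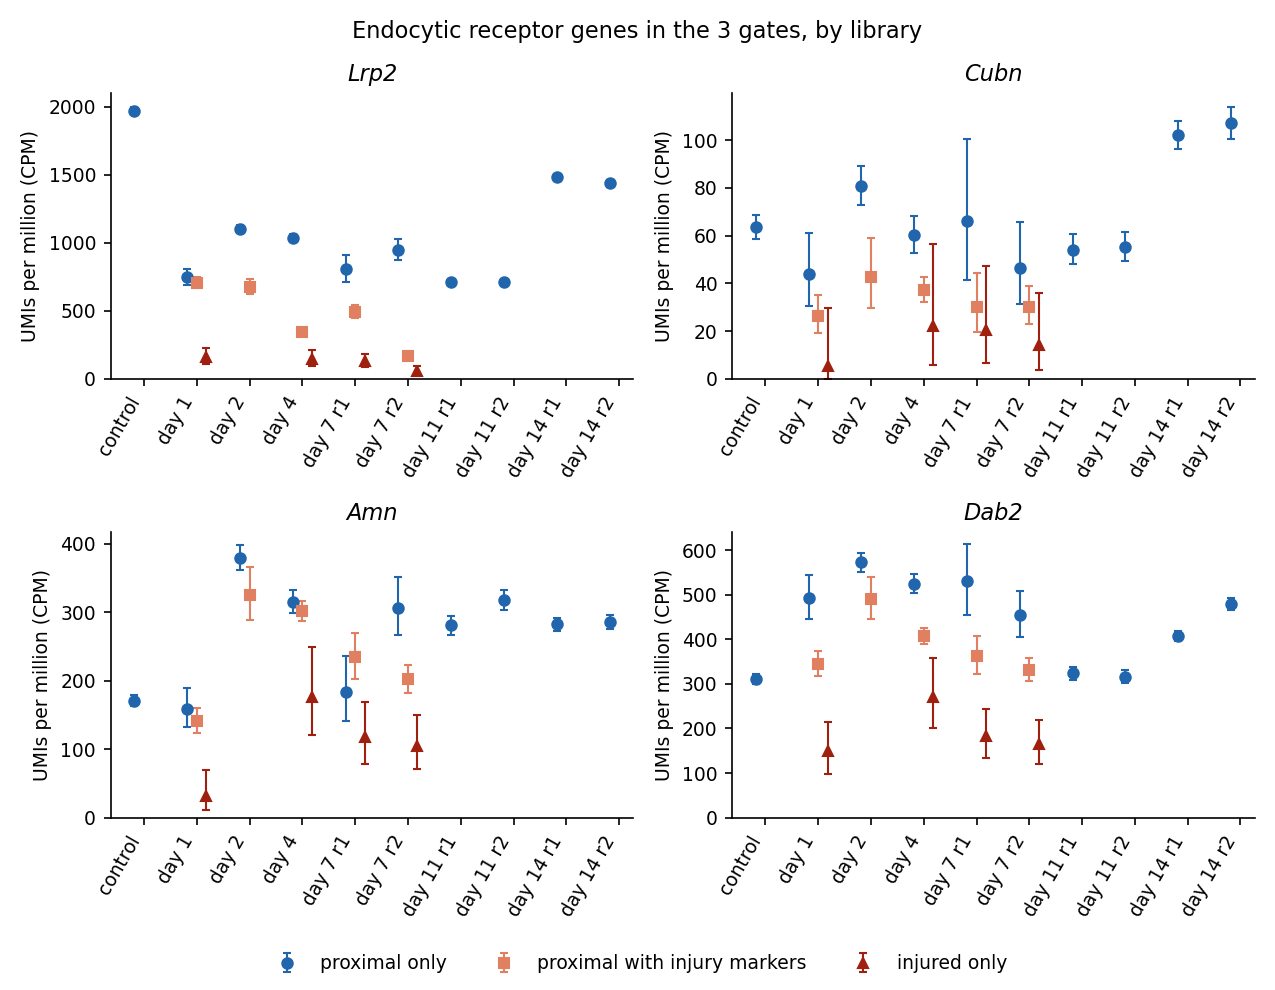
CPM of each gene in proximal only barcodes, proximal barcodes with injury markers and injured only barcodes of each library, with exact 95% Poisson intervals, shown where a gate held at least 20 barcodes. Injured only barcodes are below proximal only barcodes for all 4 genes in the 4 libraries that have both, and proximal only Lrp2 is 807 and 948 CPM on day 7 against 710 and 711 CPM on day 11.

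Injured only barcodes of day 7 held more Lrp2 and Amn than thick limb barcodes and macrophages of the same libraries did. They held Lrp2 at 130 CPM (95% interval 88.9 to 183) and 59.6 CPM (34.7 to 95.4), whereas thick limb barcodes of the same libraries held 7.72 and 4.30 CPM and macrophages 10.8 and 7.64 CPM. Amn stood at 118 and 105 CPM in these injured only barcodes against 9.65 and 4.30 CPM in thick limb. For Cubn the counts of 5 and 4 UMIs gave intervals of 6.59 to 47.4 and 3.82 to 35.9 CPM, which overlap the thick limb upper bounds of 10.8 and 7.77 CPM. Lrp2 in the second day 7 library was not separated from principal cells, whose upper bound was 36.6 CPM. Dab2 in injured only barcodes of day 7, at 183 and 165 CPM, was below macrophages, at 356 and 345 CPM, and equalled endothelial cells of the second library, at 165 CPM. On day 1, Lrp2 in injured only barcodes (160 CPM, interval 108 to 228) was not separated from principal cells, macrophages or endothelial cells, whose upper bounds were 199, 245 and 113 CPM, and on day 4 (lower bound 93.8 CPM) it was not separated from endothelial cells (138 CPM), nor was Amn (lower bound 120.9 against 123 CPM). Amn on day 1 (31.9 CPM, interval 11.7 to 69.5) overlapped all 4 of these other types, thick limb included.

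The comparison of days asks how far the receptor genes stood from the control level at each time. The 3 comparisons with the control share its library, and day 11 and day 14 share the day 7 libraries as their baseline, so these comparisons are not independent of each other. In the tubule set on day 7 against the control, all 4 genes were called lower by edgeR with TMM scaling, where 19.9% of 14619 genes were called lower. Lrp2 fell by 3.16 on the log2 scale (SE 0.24, adjusted p = 3.15e-06) and Cubn by 1.81 (SE 0.21, adjusted p = 4.28e-05) in that edgeR fit. Amn had a log2 change of -0.62 (SE 0.21, adjusted p = 0.035) and Dab2 one of -0.72 (SE 0.21, adjusted p = 0.0158) by edgeR, but with library totals as the only scaling both turned positive, to 0.30 and 0.20, and neither was called. The TMM factors ran from 0.737 in the control to 1.497 in a day 7 library, and library totals moved the median of all genes for this comparison from 0.08 to 0.99. The calls on Lrp2 and Cubn held under every alternative run for the tubule set, with log2 changes from -3.43 to -2.24 and from -1.92 to -0.90. The call on Amn was lost under 8 of 23 alternatives, among them library totals. It was lost without the first day 7 library (adjusted p = 0.071 by edgeR), without the second day 11 library (0.0512) and without the first or second day 14 library (0.0689 and 0.0688). The Dab2 call was lost when barcodes with markers of other cell types were kept (-0.44, adjusted p = 0.11 by edgeR).

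All proximal barcodes, with or without injury markers, were also fitted. On day 7 against the control 3 of 4 genes were called by edgeR beside 37.7% of genes tested, with Lrp2 at -2.97 and Cubn at -1.69, and Dab2 at -0.59 under TMM and 0.31 under library totals. The Dab2 call was lost under 13 of 24 alternatives and turned under 2. Against the control 2 of 4 were called on day 11, beside 23.7% of genes, with Lrp2 lower (-1.62) and Amn higher (0.67). The Amn call was lost under 10 of 24 alternatives. On day 14 against the control 0 of 4 were called, beside 10.1% of genes. There 3 passed an unadjusted p of 0.05 by edgeR, beside 3883 of 14610 genes, and DESeq2 called 0, beside 849. All 4 were called from day 7 to day 11, beside 38.9% of genes, and from day 7 to day 14, beside 41.3%, and 2 from day 11 to day 14, beside 11.3%. The Dab2 call from day 7 to day 11 (0.48, adjusted p = 0.0447 by edgeR) was lost under 14 of 26 alternatives, among them leaving out any 1 library of day 7, 11 or 14, and turned under 2.

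The same comparison was made in proximal only barcodes, as a separate fit, and the difference between the gates was not tested. In proximal only barcodes, a comparison added after the data had been seen, Lrp2 was lower on day 7 by edgeR with a log2 change of -1.98 (SE 0.29, adjusted p = 0.000467), and -1.16 with library totals (adjusted p = 0.00448), where 2.28% of genes were called lower. Cubn had -1.04 (SE 0.26, adjusted p = 0.0139 by edgeR), and -0.23 without a call under library totals. Per total UMIs the day 7 libraries held Cubn at 66.3 and 46.4 CPM in this gate, against 63.6 CPM in the control. Amn and Dab2 were not called, at -0.25 and -0.17 under TMM and at 0.55 and 0.66 under library totals. That made 2 of 4 genes called lower by edgeR under TMM, beside 9.72% of 14372 genes. The fall of Lrp2 was the single change from the control that both gates and both scalings called on day 7.

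By day 11 Lrp2 was still below the control. The log2 change in the tubule set was -1.62 (SE 0.24, adjusted p = 0.00121 by edgeR), and -1.61 in proximal only barcodes (adjusted p = 0.00218 by edgeR), where 11.1% of genes were called lower, and 8.28% under library totals, with Lrp2 at -1.47 and called. Cubn had -0.37 (adjusted p = 0.193 by edgeR) and Dab2 -0.11 (adjusted p = 0.749 by edgeR), which was 0.03 under library totals. Amn was higher by 0.67 (SE 0.22, adjusted p = 0.0465 by edgeR). That call was lost when the first or the second day 11 library was left out (adjusted p = 0.0775 and 0.181 by edgeR), when the first or the second day 14 library was (0.0889 and 0.0879), and in proximal only barcodes (0.152). In this comparison 11.8% of genes were called lower and 11.3% higher. On day 14 none of the 4 was called against the control, where 9.3% of genes were, nor in proximal only barcodes, where 8.91% were. At an unadjusted p of 0.05 edgeR passed 3 of the 4 in the tubule set, beside 3866 of 14619 genes, and DESeq2 called 0 of them after adjustment, beside 824. Lrp2 had -0.61 (SE 0.24, adjusted p = 0.133 by edgeR), Cubn 0.54 (SE 0.20, adjusted p = 0.114), Amn 0.56 (SE 0.22, adjusted p = 0.126) and Dab2 0.34 (SE 0.21, adjusted p = 0.339). Lrp2 was at -0.04 (adjusted p = 0.93 by edgeR) when barcodes with markers of other cell types were kept. A p above the threshold does not show a return to the control level, and with library totals Cubn (0.71, adjusted p = 0.043) and Amn (0.73, adjusted p = 0.0442) were called higher by edgeR.

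The comparisons among injured days have 2 libraries on each side and do not use the control library as a group. From day 7 to day 11 all 4 genes rose in the tubule set by edgeR, where 20.6% of genes were called higher. The log2 changes were 1.54 for Lrp2 (SE 0.21, adjusted p = 0.000107), 1.44 for Cubn (SE 0.18, adjusted p = 7.76e-05), 1.29 for Amn (SE 0.18, adjusted p = 0.000144) and 0.62 for Dab2 (SE 0.17, adjusted p = 0.0139) by edgeR, the last turning to -0.17 under library totals. The Dab2 call was lost without the first day 11 library (adjusted p = 0.0587 by edgeR) and without the second (0.0575). Changes in proximal only barcodes over the same interval had smaller fitted values for all 4 genes, a difference between gates that was not tested. Their Lrp2 change was 0.37 (SE 0.25, adjusted p = 0.312 by edgeR), and -0.31 under library totals. The levels per total were 807 and 948 CPM in the day 7 libraries and 710 and 711 CPM in those of day 11. Cubn had 0.69 (adjusted p = 0.0533 by edgeR) in these barcodes, not called, and 0.011 under library totals. Amn was called in these barcodes, at 0.92 (SE 0.27, adjusted p = 0.0278 by edgeR), and not under library totals (0.26). It was the only 1 of the 4 called higher, beside 12.3% of genes. Dab2 was at 0.08 and not called, and under library totals it was called lower at -0.62 (adjusted p = 0.04 by edgeR), as were 25.7% of genes.

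From day 11 to day 14 both receptors rose, and neither Amn nor Dab2 was called, although Dab2 was (0.63, adjusted p = 0.0284 by edgeR) when barcodes with markers of other cell types were kept. Lrp2 rose by a log2 change of 1.015 (SE 0.20, adjusted p = 0.00859 by edgeR) and Cubn by 0.91 (SE 0.16, adjusted p = 0.0051) in the tubule set, where 4.23% of genes were called higher. In proximal only barcodes the edgeR changes were 1.012 (adjusted p = 0.0192) and 0.91 (adjusted p = 0.00689), and with library totals 1.04 and 0.94, both called, where 4.06% of genes were called higher under TMM and 4.08% under library totals. Amn had -0.11 (adjusted p = 0.755 by edgeR), and 0.13 when barcodes with markers of other cell types were kept, and Dab2 had 0.45 (adjusted p = 0.122 by edgeR). The Lrp2 change ran from 0.96 to 1.24 over 24 alternatives, but its call was lost without the first or second day 11 library (adjusted p = 0.0537 and 0.0838 by edgeR) or the first day 14 library (0.0705), and the Cubn call without the second day 11 library (0.0616). Between day 7 and day 14 all 4 were called higher in the tubule set by edgeR (2.56 for Lrp2, 2.35 for Cubn, 1.18 for Amn and 1.06 for Dab2, the last 0.31 and not called under library totals), beside 21% of genes, and Lrp2 (1.38), Cubn (1.60) and Amn (0.82) also in proximal only barcodes, beside 10.9% of genes. Under library totals Lrp2 (0.73) and Cubn (0.95) were still called in those barcodes, beside 2.5% of genes, and Amn (0.18) was not.

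**Figure D4:**
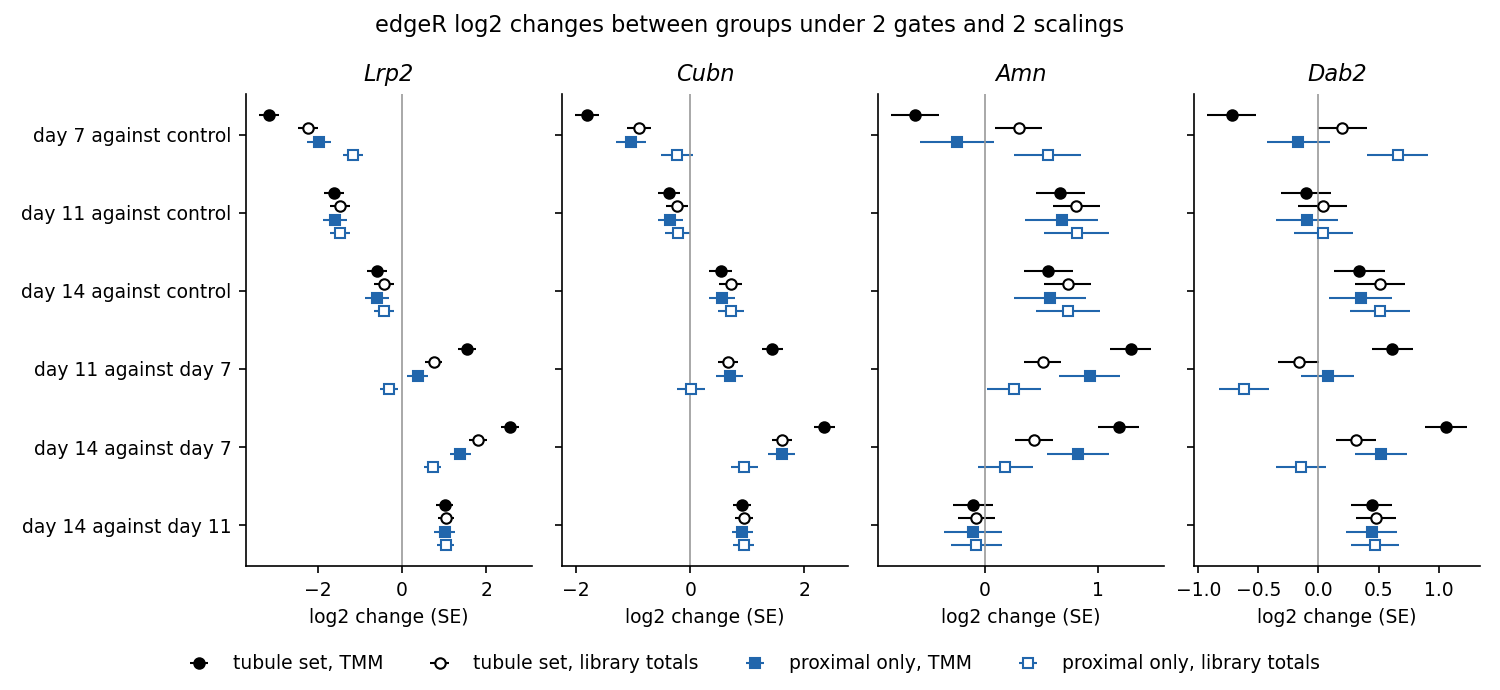
edgeR log2 changes with standard errors for 6 comparisons of days (a day 7, 11 or 14 library group against the control or an earlier day), in the tubule set and in proximal only barcodes, under TMM scaling and library totals. The 4 settings nearly coincide for day 14 against day 11 (1.015 and 1.012 for Lrp2 and 0.91 in both gates for Cubn under TMM) and spread most where day 7 is compared, with opposite signs between scalings for Amn and Dab2 on day 7 against the control.

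Vcam1, an adhesion molecule of injured tubules, was used to split the injury-positive barcodes of 5 libraries. No receptor gene passed the test between positive and negative barcodes. Vcam1 is itself in the injury list, so negative barcodes had to pass on its other genes. The split is therefore not independent of the gate. Positive barcodes were also deeper. Their medians were 3135.5, 3960 and 2867 UMIs on days 1, 2 and 4, against 1712.5, 1425 and 1669 in negative ones. In the day 7 libraries they were 1738 and 3005 against 1303 and 1738.5 UMIs. The part of depth was not tested. On days 1, 2 and 4 Lrp2 stood at 600, 717 and 268 CPM in Vcam1-positive barcodes and at 663, 576 and 596 CPM in Vcam1-negative ones. The day 7 libraries held 352 and 155 CPM against 581 and 137 CPM. The positive barcodes were lower in 3 of 5 libraries. None of the 4 genes was called by edgeR with the library as a block, beside 3.34% of 9135 genes. At an unadjusted p of 0.05 edgeR passed 2 of them, Lrp2 and Cubn, beside 1177 genes, and DESeq2 called 0 after adjustment, beside 144. The log2 changes were -0.40 for Lrp2 (adjusted p = 0.299 by edgeR), -0.87 for Cubn (0.0642), -0.24 for Amn (0.503) and -0.12 for Dab2 (0.712), and all 4 turned positive when barcodes with markers of other cell types were kept, to 0.66, 0.68, 1.10 and 0.35, with Amn and Dab2 then called higher. Without day 2 the edgeR calls were 2 of 4, with Lrp2 at -0.62 (adjusted p = 0.0105) and Cubn at -1.03 (adjusted p = 0.0121), beside 556 of 10194 genes against 305 of 9135 with it. Without the first day 7 library Cubn alone was called, at -1.04 (adjusted p = 0.0298 by edgeR), beside 236 of 9674 genes.

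Across the cell types of the same libraries, Lrp2, Cubn and Amn were highest in proximal barcodes and Dab2 was shared. Lrp2 had a median of 992 CPM (710 to 1970) over the 10 libraries in proximal only barcodes. Its median was between 14.4 CPM in T or NK cells and 65.2 CPM in endothelial cells in the other types that had at least 20 barcodes in a library. These lower medians lie in overlapping ranges, and free RNA can contribute to them. Amn had a median of 284 CPM in proximal only barcodes and at most 24.7 CPM in any other type. Cubn had 61.8 CPM there and at most 7.22 CPM elsewhere, with a median of 0 in 5 types. Dab2 had a median of 467 CPM in proximal only barcodes (311 to 573), 405 CPM in macrophages (291 to 901), 311 CPM in intercalated cells (221 to 518), 188 CPM in podocytes and 172 CPM in endothelial cells, against 32.4 CPM in thick limb. The first 3 of these ranges overlap. The macrophage list in the tubule set was at 37.7 to 199 CPM on days 2, 4 and 7 and at most 23.1 CPM in the other libraries, and the part of this list and of the intercalated cell list in the Dab2 values was not tested.

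**Figure D5:**
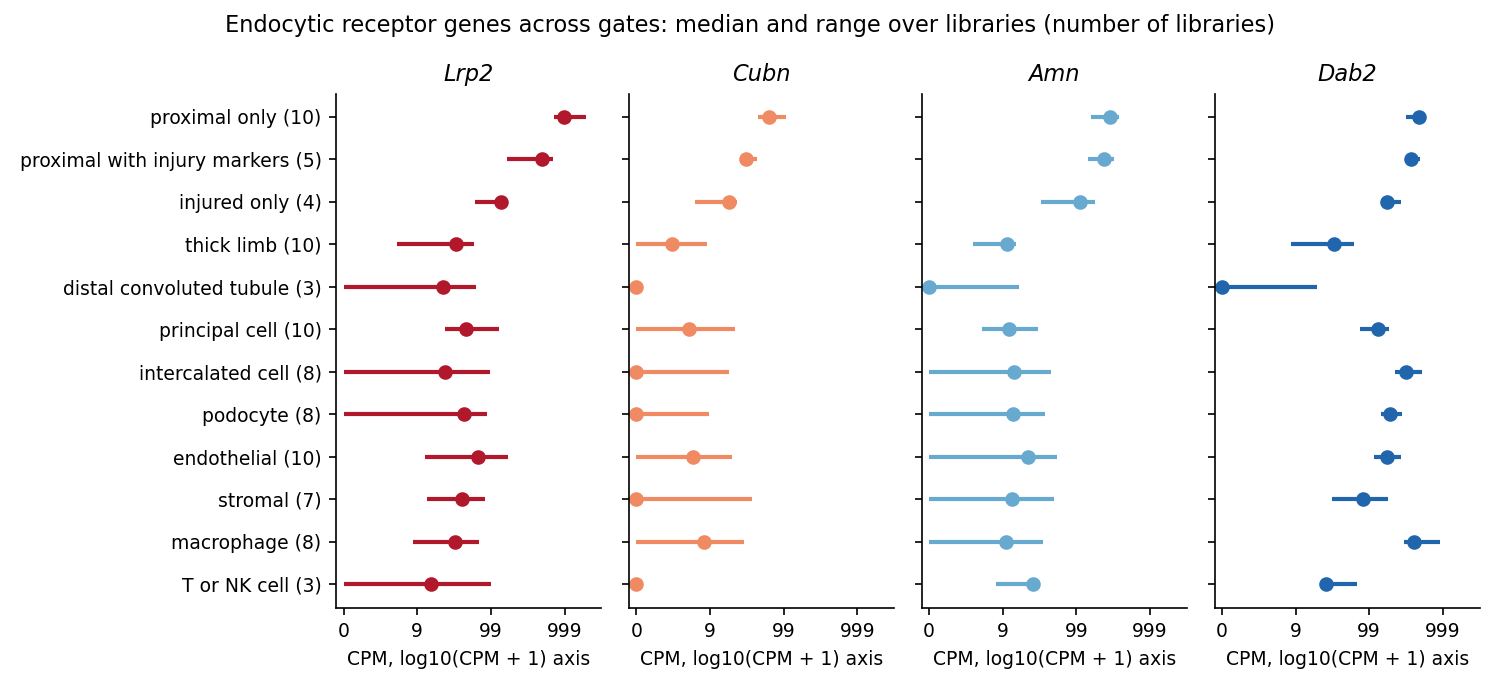
Median CPM (point) and range (line) of each gene over the libraries with at least 20 barcodes of a gate, with the number of libraries in brackets, on an axis of log10(CPM + 1). Lrp2, Cubn and Amn are highest in the proximal gates, whereas Dab2 in macrophages (median 405 CPM) and intercalated cells (311 CPM) overlaps its proximal range.

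Other genes of the uptake route were followed in 5 lists, read beside the 19.9% of all genes called lower and 19.7% called higher on day 7 under TMM. Library totals called 8152 of 14619 genes on day 7 and 8599 from day 7 to day 11, with all-gene medians of 0.99 and -0.88, so list counts under that scaling are to be read against those totals. On day 7 against the control, the list of the receptor chaperone and early or recycling endosome had 10 of 21 genes called lower and 0 higher by edgeR with TMM scaling, and 1 lower and 8 higher with library totals. Lrpap1, the chaperone that keeps ligands off megalin during its synthesis, stood at 414 CPM in the control, 174 and 185 CPM on day 7, and 500 and 485 CPM on day 14. Its log2 change on day 7 was -2.12 (SE 0.21, adjusted p = 1.8e-05 by edgeR), and -1.20 under library totals, also called. Rab38 fell by 1.57 on the log2 scale in edgeR's TMM fit and was not called under library totals (-0.66). From day 7 to day 11, when 20.9% of all genes were called lower and 20.6% higher, this list had 10 genes called higher and 0 lower by edgeR (2 higher and 9 lower with library totals), led by Lrpap1 at 1.93 and Rab38 at 1.20, the latter not called under library totals (0.43).

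Of the 11 tested genes for other apical receptors and ligand handling, 6 were called lower and 2 higher on day 7 by edgeR, and 3 lower and 3 higher with library totals. Tfrc, the transferrin receptor, had a log2 change of -3.59 and Anpep, a brush border peptidase, one of -2.69. The higher genes were Lgals3, which encodes galectin-3, at 5.26 and Gc, which encodes the vitamin D binding protein that megalin takes up, at 4.76. Gc stood at 5.34 CPM in the control, 306 and 245 CPM on day 7, and 8.82 and 4.22 CPM on day 11. From day 7 to day 11 the list had 8 higher and 2 lower by edgeR. Tfrc was higher by 2.42, and Gc and Lgals3 were lower, at -4.61 and -2.91. Ttr had the largest fitted rise, but its UMIs came from 1 library, with 1693 in the first day 11 library, 0 in the second, and 0 and 3 on day 7.

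The remaining lists were divided. Of 22 genes of the proton pump, late endosome and lysosome, 5 were called lower and 4 higher on day 7 by edgeR, and 2 lower and 12 higher with library totals. Atp6v1a, a proton pump subunit, had -1.55, whereas Hexa, which encodes a lysosomal enzyme subunit, had 2.17 and the protease gene Ctsl 1.83, with the same signs under library totals. Of 17 endocytic adaptor, clathrin and AP-2 genes, 4 were lower, with Ap2a2 (-1.30) and Epn1 (-1.12) ahead, both not called under library totals, and Gipc1 (1.60) was higher, against 10 higher and 0 lower with library totals. The LDL receptor family had 3 lower, among them Lrp6 (-1.29) and Vldlr (-1.21), both not called under library totals, and 3 higher, with Lrp10 (1.02) the one that met the level required for naming, against 0 lower and 4 higher with library totals. Between day 7 and day 11 the lysosomal list had 5 higher and 4 lower by edgeR (2 and 10 with library totals), with Atp6v1a (1.33) higher and Hexa (-1.53) and Ctsl (-1.14) lower. The adaptor list had 4 higher and 3 lower (1 and 12), with Cltb (1.53) and Epn1 (0.92, not called under library totals at 0.14) higher and Ap2b1 (-1.81) and Picalm (-1.12) lower. The LDL receptor family had 0 higher and 2 lower (0 and 8). The median log2 changes of the 5 lists on day 7 under TMM lay between -0.72 and 0.15, beside -1.27 for the 4 receptor genes and 0.08 for all genes tested.

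In injured only against proximal only barcodes, where 9.14% of all genes were called higher and 15.8% lower, the lysosomal list had 10 of 18 tested genes called lower and 1 higher by edgeR, or 4 and 2 with library totals. Lgmn, the protease legumain, was at -2.02 and Atp6v1b2 at -0.996, and Ctsl was higher by 0.56. The chaperone and early endosome list had 6 of 16 lower and 0 higher (6 and 1 with library totals), with Rab11fip3 at -2.37 and Lrpap1 at -1.84. The list of other apical receptors had 4 of 8 lower, with Dpep1, a brush border dipeptidase, at -3.48 and Tcn2, the vitamin B12 carrier transcobalamin, at -2.12, and Lgals3 was higher at 1.11. The adaptors had 3 of 14 lower and 0 higher (1 and 0 with library totals), with Myo6 at -0.91 and Cltb at -0.75, and the LDL receptor family 1 of 4, Vldlr at -1.42. The call on Cltb was lost under library totals (-0.54). In proximal barcodes with injury markers the lysosomal list had 7 of 22 lower and 0 higher and the chaperone list 4 of 20 lower and 0 higher (medians -0.33 and -0.08), beside 12.7% of all genes called lower. There the other apical receptors had 5 of 10 lower and 1 higher, the adaptors 3 of 17 and 0, and the LDL receptor family 2 of 6 and 1.

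The genes whose tubule set levels most resembled each receptor gene differed between the 4. Likeness was Pearson's r of log2(CPM + 1) over the 10 libraries among 4440 genes whose average log2 CPM was 5 or more. It is a description across libraries that share depth and cell make-up. The CPM is per total UMIs, without the TMM factors of the tests. Likeness under TMM scaling was not computed. The nearest to Lrp2 were Abcc2 (0.98), Kcnj15 (0.97), Ankrd13c (0.97), Kl (0.95) and Clybl (0.94). Cubn was nearest to Fmo2 (0.96), Car14 (0.94), Fmo1 (0.94), Ccser2 (0.94) and Sucla2 (0.94). Amn was nearest to Folr1 (0.96), another apical receptor, followed by Ndel1 (0.94), Acot13 (0.93), Tmem116 (0.93) and Scand1 (0.92). Dab2 was nearest to Cyp2d26 (0.94), Alpl (0.92), Slc7a7 (0.92), Mfsd1 (0.91) and Slc5a2 (0.90). The value describes a shared pattern over libraries only. Among the 4 genes themselves, Lrp2 and Cubn had an r of 0.81, Lrp2 and Dab2 0.20, and Lrp2 and Amn 0.09. Cubn, the binding partner of the Amn product, had an r of 0.57 with Amn.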

How the data were processed

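Single-cell suspensions of kidney cortex were processed by Drop-seq, per the labels' protocols. The authors deposited 1 table of whole-number counts per gene and barcode for each of the 10 libraries. The submitters' processing notes name Bowtie2 2.2.7 and mm10, without a role. The annotation and the UMI counting are not given in the sources used here, and the counts were taken as UMIs. Members, gene lists and gates were chosen with earlier results of these data known.

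Counts were summed per library and gate, with TMM scaling and filterByExpr, in edgeR 4.0.16 (R 4.3.3), quasi-likelihood F test, Benjamini-Hochberg over all genes tested and a threshold of 0.05. All 10 libraries shared one fit for comparisons of days; within-library comparisons had the library as a block and used injured libraries with at least 20 barcodes of each gate. SE is the absolute log2 change divided by the square root of F. The fit was also run on simulated counts with the same make-up in all libraries, apart from genes changed in both directions on day 7. That run lacks the shifts in make-up on which the scalings differ here, so it cannot test them, and no conclusion is drawn from it. A gene beyond the 4 was named when it was among the 2 largest called changes per list and direction whose average log2 CPM was 4 or more, or among the 5 most alike. One gene that met this rule is not reported here, and the counts of its list include it. CPM is per 1000000 UMIs of the gate, with exact 95% Poisson intervals that cover counting error only. The tubule sums held 1410106 to 12231630 UMIs. Doublets were treated by leaving out barcodes with markers of other types. The macrophage list lacked Adgre1, which has no row. Library pairs shared at most 11 barcodes. Replicates of one day differed by more than sampling noise. Alternatives were RLE scaling, library totals, DESeq2 1.42.0, no filter, 8 other gates, each library left out, a replicate block, only the compared groups, and no library block. Those added after seeing the data were the gate of proximal barcodes with injury markers, proximal only barcodes under each scaling, and leaving out both day 11 libraries.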

Additional observations from a re-analysis of the deposited data

Results flagged for a closer look

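In the split of injury-positive barcodes by Vcam1, Lrp2 on day 2 was higher in the positive barcodes, with a ratio of 1.25 (717 against 576 CPM). Lrp2 was lower in them on days 1 and 4, and the day 7 libraries were split, with ratios of 0.61 and 1.13. Amn on day 2 had a ratio of 1.16 (338 against 291 CPM) and was lower in positive barcodes on days 1 and 4. Days 1, 2 and 4 have 1 library each, and the difference between days was not tested. Day 2 also had the fewest injury-positive barcodes of the 5 libraries, 88 positive and 76 negative.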

How the results depend on the processing

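Under library totals in the tubule set, Amn (0.30) and Dab2 (0.20) on day 7 against control, Dab2 on day 11 against control (0.034) and Dab2 from day 7 to day 11 (-0.17) changed sign. In proximal barcodes library totals turned Amn (0.40) and Dab2 (0.31) on day 7, Dab2 on day 11 against control (0.034) and Dab2 from day 7 to day 11 (-0.28). Proximal only barcodes under library totals turned Amn (0.55) and Dab2 (0.66) on day 7, Dab2 on day 11 against control (0.041), Lrp2 (-0.31) and Dab2 (-0.62) from day 7 to day 11, and Dab2 from day 7 to day 14 (-0.15). A proximal gate by share of UMIs turned Amn on day 7 (0.051). Keeping barcodes with markers of other classes turned Dab2 on day 11 against control (0.049 in the tubule set, 0.033 in proximal barcodes), Amn from day 11 to day 14 (0.13 in both) and, in the Vcam1 split, Lrp2 (0.66), Cubn (0.68), Amn (1.10) and Dab2 (0.35). The cause was not tested.

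Of the 4 genes in the tubule set, the number called on day 7 against control went from 4 to 2 under library totals (8152 of 14619 genes called). With only the compared groups it was also 2 (5095 of 12418). On day 11 against control it went from 2 to 1 without a filter on low counts, with a looser proximal gate, with injury calls at 1 UMI, with a mitochondrial limit of 25%, and was 1 to 2 with a library left out. On day 14 against control it went from 0 to 2 under library totals (1647 of 14619 genes called). It was 2 with other classes kept (1157 of 16591) and 3 with only the compared groups (2949 of 12541). From day 11 to day 14 it was 0 to 2 with a library left out. In proximal barcodes on day 7 against control it went from 3 to 1 for proximal only barcodes under library totals. There, on day 11 against control, it went from 2 to 1 without a filter, with a looser gate, the share gate, the mitochondrial limit of 25% or proximal only barcodes under either scaling, and was 1 to 2 with a library left out. Its day 14 value against control went from 0 to 2 under library totals (1721 of 14610 genes called). It was 2 with other classes kept (1139 of 16600) and 3 with only the compared groups (2997 genes). From day 7 to day 11 it went from 4 to 2 under library totals (8117 of 14610 genes called) and to 1 with the share gate (3062 of 14033). For proximal only barcodes it was 1 under either scaling, with Amn higher under TMM and Dab2 lower under library totals. From day 7 to day 14 it went from 4 to 2 under library totals (8080 of 14610 genes called), the share gate (2532 of 14033) and proximal only barcodes under library totals. From day 11 to day 14 it was 0 to 2 with a library left out. In the Vcam1 split it went from 0 to 2 without a filter, with injury calls at 1 UMI and without the top 5% of UMIs, where Lrp2 and Cubn were called lower, and to 2 with other classes kept, where Amn and Dab2 were called higher. It was 0 to 2 with a library left out. In the injured only comparison the 4 calls held under the other gates, scalings and left-out libraries, apart from Amn with the proximal gate that keeps injury markers. The Cubn call is among these and, given the filter on low counts, is not counted as support. The number of all genes called also moved with these settings. A change in the number called of the 4 is therefore not a result about the 4 genes alone.

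The number of all genes called moved by more than 1.5 times in these comparisons. In the tubule set it was 3372 on day 11 against control (1376 without the second day 11 library to 4637), 1360 on day 14 against control (272 without the second day 14 library to 2949) and 1580 from day 11 to day 14 (389 without the second day 11 library to 2521). In proximal barcodes it was 5508 on day 7 against control (2768 for proximal only barcodes), 3460 on day 11 (1591 without the second day 11 library), 1474 on day 14 (279 to 2997), 5690 from day 7 to day 11 (3062 with the share gate), 6034 from day 7 to day 14 (2532 with the share gate) and 1651 from day 11 to day 14 (489 to 2450). It was 1608 for injured only barcodes (818 without a library block to 3965 with the share gate) and 305 for the Vcam1 split (1 without a library block to 2739 with other classes kept).

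The deviations of same-numbered libraries had an r of 0.29 between days 7 and 11, -0.10 between days 7 and 14 and -0.08 between days 11 and 14, over 4440 genes. These values have no reference to be read against, so they cannot show whether the replicate numbers pair the libraries. With the replicate block on days 7, 11 and 14 alone, the tubule set had 4 genes called from day 7 to day 11 (Lrp2 1.53), 4 from day 7 to day 14 and 2 from day 11 to day 14, beside 6013, 6116 and 1676 of 12997 genes, and proximal barcodes had 3, 4 and 2, beside 5653, 5763 and 1770 of 12947. Leaving out both day 11 libraries changed no call in the tubule set on day 7 or 14 against control or from day 7 to day 14. Days 1, 2 and 4 and the control have 1 library each, so their values carry counting error only, and Cubn had the fewest UMIs throughout.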
